A study of Mus musculus with 8 samples.

Results

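A group of 417 probes on a mouse expression array gave a signal above local background in embryonic stem cells (ESC) and a signal at least 8.00-fold higher, relative to a common reference RNA, in trophectoderm cells (TE) made from them. Their values rose from an already measurable state, by a median of 13.6-fold in wild-type cells and 15.6-fold in cells without B-type lamins. Each was chosen by 2 conditions. Its spot had to be at least 3 times as bright as its local background in the sample channel on all 8 arrays, which 16023 of the 42006 probes met. By the stricter flag of the scanner software, 407 of the 417 stood well above background in Cy3 on all 8 arrays and 10 did not. Its log2 ratio of sample over reference, from the processed signals of the scanner software centred on the median of each array, had to be higher by at least 3 in TE than in ESC in both genotypes. Among the 16023 probes, 476 met the difference in wild type, 574 met it in lamin B null cells, and 417 met both. The TE minus ESC difference, called the gain below, therefore chose the probes and is given as a description with no test.

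The samples were cultured male mouse cells of mixed C57BL/6;129S4Sv/Jae;129S6/SvEvTac background in 4 groups of 2 arrays. Wild-type and lamin B null ESC were compared, the latter lacking both Lmnb1 and Lmnb2, together with the TE cells derived from each. Every line, the controls included, had been given a Cdx2 transgene fused to the estrogen receptor and integrated at random (pCAG-Cdx2ER-IP), which 4-hydroxytamoxifen switches on. TE cells were obtained by 2 days with the drug in 30% TS medium and 6 days in 100% TS medium, so they are differentiated cultures under a forced lineage factor and not trophectoderm taken from embryos. The lines came from blastocysts of intercrossed double heterozygotes, with 2 independent lines per genotype, and which array holds which line is not stated. For wild-type TE an entry on genetic modification names a knockout, against the title and genotype, and these last were followed. RNA of each sample, in Cy3, was hybridised with the same reference RNA in Cy5, made of 2 parts from 11 mouse cell lines and 1 part from 129 ESC.

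As background, Cdx2 is a homeodomain transcription factor that specifies the trophectoderm, the outer layer of the blastocyst from which the placental trophoblast derives, and forcing its activity drives ESC out of the pluripotent state toward that lineage. B-type lamins are intermediate filament proteins of the nuclear lamina, under the inner nuclear membrane, where silent chromatin tends to gather. The study asked whether their loss alters gene activity in ESC and in TE cells.

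The 42006 probes are named in the files by array identifiers alone, without gene or position, so neither the gene behind a probe nor the marker genes of ESC and TE could be looked up. The cell type and the deletion were therefore not checked against markers. Per array, 47.1% to 68.0% of probes stood well above background in Cy3, the median sample intensity lay between 107 and 156 over a local background of 42 to 47, and no spot was saturated. The 4 ESC arrays were on 1 slide and the 4 TE arrays on another, so slide and cell type cannot be told apart. Across the 27359 tested probes, correlations of log2 ratios were 0.95 to 0.97 among ESC arrays, 0.81 to 0.97 among TE arrays, with wild-type TE replicate 1 standing apart, and 0.14 to 0.22 between ESC and TE arrays. The probes measure bulk cultures, in which more cells of a type and more RNA per cell cannot be told apart. Nothing in the labels ties a replicate to a separate culture beyond the statement on lines, and the p-values below measure the spread between these arrays.

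The probes are oligonucleotides of 60 bases, and their sequences are the only identity the files give. The 5 with the largest gains, counted by the smaller of the 2 genotypes, are shown first, since the results open with them. They are printed 5′ to 3′ in lower case as the array design has them, without capitals because no stretch of them is singled out.
Z00025177-1: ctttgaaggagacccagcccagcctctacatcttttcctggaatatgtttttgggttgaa
Z00024159-1: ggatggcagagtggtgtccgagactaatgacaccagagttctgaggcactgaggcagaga
Z00010216-1: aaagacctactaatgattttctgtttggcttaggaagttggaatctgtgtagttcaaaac
Z00017989-1: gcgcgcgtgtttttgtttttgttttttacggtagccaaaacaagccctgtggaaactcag
Z00023022-1: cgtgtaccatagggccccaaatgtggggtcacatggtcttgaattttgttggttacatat

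Some of the 417 probes overlap each other and so read, in part, the same stretch of transcript from separate spots. There were 11 such pairs, 22 probes in all, that shared between 20 and 55 bases on the same strand. The 3 pairs printed here are those on which statements below rest, and the capitals mark the shared bases.
Z00059431-1: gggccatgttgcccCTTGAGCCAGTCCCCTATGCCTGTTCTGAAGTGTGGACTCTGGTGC
Z00074362-1: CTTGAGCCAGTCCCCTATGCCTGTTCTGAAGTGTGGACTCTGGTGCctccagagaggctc
Z00034608-1: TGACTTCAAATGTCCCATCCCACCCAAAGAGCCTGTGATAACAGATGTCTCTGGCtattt
Z00056326-1: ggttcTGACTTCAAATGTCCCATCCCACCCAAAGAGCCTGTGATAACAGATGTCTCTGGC
Z00006752-1: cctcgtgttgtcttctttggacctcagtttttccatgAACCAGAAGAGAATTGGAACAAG
Z00075229-1: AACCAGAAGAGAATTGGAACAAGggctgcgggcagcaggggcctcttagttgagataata

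A further pair has its shared bases on opposite strands, so that each probe reads a transcript the other cannot. The first of them is 1 of the 417 probes and the second is not. The capitals mark the shared 48 bases, which run in the reverse complement of each other.
Z00022706-1: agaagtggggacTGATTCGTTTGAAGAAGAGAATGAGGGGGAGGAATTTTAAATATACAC
Z00028989-1: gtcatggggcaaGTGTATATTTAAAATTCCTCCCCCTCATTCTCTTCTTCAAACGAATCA

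The gain was graded, with most probes near the lower limit and a long upper tail. In wild type it ran from 3.00 to 8.01 on the log2 scale, with quartiles of 3.36 and 4.46 and a median of 3.77. In lamin B null cells it ran from 3.00 to 8.31, with quartiles of 3.53 and 4.62 and a median of 3.97. By the smaller of both gains, 272 probes lay from 3 to under 4, 93 from 4 to under 5, 31 from 5 to under 6, and 21 at 6 or above. For comparison, the median TE minus ESC difference over all 16023 active probes was 0.01 in wild type and 0.16 in lamin B null cells.

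At the top of the scale stood Z00025177-1. Its log2 ratio of processed signals, the scale used up to the genotype tests, was −5.52 and −3.62 in wild-type ESC, −5.54 and −4.37 in lamin B null ESC, 4.34 and 2.55 in wild-type TE, and 3.53 and 2.84 in lamin B null TE. Every ESC array was thus far below 0 and every TE array above it, and the gain amounted to 259-fold in wild type and 281-fold in lamin B null cells. The ESC replicates of this probe differed by up to 1.90, against 0.12 between the gains of both genotypes.

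Z00024159-1 gave −4.62 and −3.13 in wild-type ESC and −4.25 and −3.85 in lamin B null ESC. Its TE values were 3.60 and 4.42 in wild type and 4.15 and 4.37 in lamin B null cells. It held the largest gain of all in lamin B null cells, 317-fold, against 236-fold in wild type, and its ESC and TE arrays lay far apart.

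Z00010216-1 had the lowest ESC ratios of the leading 5, −6.73 and −5.32 in wild type and −6.66 and −5.73 in lamin B null cells. Its TE ratios were 2.10 and 1.61 in wild type and 2.04 and 1.85 in lamin B null cells, so the 4 TE arrays fell within a narrow band. Z00017989-1 went from −5.57 and −4.79 to 2.28 and 2.85 in wild type, and from −5.24 and −5.38 to 2.54 and 2.93 in lamin B null cells, again with no overlap between ESC and TE. Z00023022-1 went from −3.68 and −3.04 to 4.22 and 4.40 in wild type, and from −3.91 and −3.89 to 3.82 and 4.19 in lamin B null cells. Its dimmest ESC spot was 5.81 times as bright as its background, so it was active in ESC only by a modest margin.

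The next 5 by gain were Z00012401-1, Z00035440-1, Z00056939-1, Z00075985-1 and Z00059649-1, whose smaller gains ran down from 7.31 through 7.27, 7.04 and 6.98 to 6.93. In all of these the 4 TE arrays lay between 1.95 and 4.18 and the 4 ESC arrays between −5.35 and −2.55. Z00056939-1 varied most between the ESC replicates, at −4.66 and −2.65 in wild type and −4.20 and −3.38 in lamin B null cells.

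At the other end, the limit of 3 cut through a continuous range of values. The 5 probes just inside it were Z00032198-1, Z00025577-1, Z00005459-1, Z00058135-1 and Z00049789-1, with smaller gains between 3.00 and 3.01. The 5 active probes just outside were Z00019599-1 at 2.9998 in wild type and 3.18 in lamin B null cells, Z00015902-1 at 2.996 and 3.01, Z00062105-1 at 2.99 and 3.28, Z00053001-1 at 3.05 and 2.99, and Z00011104-1 at 2.98 and 3.08. Of those just inside, Z00032198-1 had ESC ratios of −0.19 and 0.03 in wild type and 0.07 and −0.19 in lamin B null cells, close to 0, and TE ratios of 2.76, 3.09, 3.11 and 3.21 in the same order. Its arrays separated as cleanly as those of the leading probes, only by a smaller distance.

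Every one of the 417 probes had all 4 TE arrays above all 4 ESC arrays, a separation that the choice of probes favours. The share of other active probes with this separation is not given, so nothing is read from it or from the gaps. The gap from the lowest TE array to the highest ESC array ran from 0.63 to 7.06 with a median of 3.04. It was at least 3 for 219 probes, at least 2 for 405 and under 2 for 12. The median ratio over the 417 probes was −2.61 and −2.03 on the wild-type ESC arrays, −2.46 and −2.29 on the lamin B null ESC arrays, 1.68 on both wild-type TE arrays, and 1.66 and 1.86 on the lamin B null TE arrays. The wild-type ESC arrays stood apart: replicate 2 was higher for 394 of the 417 probes, by a median of 0.55, and for 95.6% of the other active probes, by a median of 0.37. In the loess values used for the tests these medians were 0.08 and −0.01. In the limma fit described below, 417 of the probes passed an adjusted p of 0.05 as higher in TE in wild type, where 29.5% of all tested probes did, and 416 in lamin B null cells, where 27.7% did; the rule fixed these counts and nothing is read from them.

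Most of the probes passed from below 0 to above it. Since the ratios are centred, 0 stands for the median ratio of an array and not for equality with the reference RNA. In all 4 ESC arrays 393 lay below 0, in all 4 TE arrays 354 lay above it, and 330 did both. Shares over the other active probes are not given, so these counts are a description only. A small number stayed on one side: 14 were below 0 on every TE array as well, and 9 were above it on every ESC array. Z00034608-1 was one of the latter, at 0.72 and 1.52 in wild-type ESC and 0.56 and 0.59 in lamin B null ESC, and it reached 3.92 and 4.71 in wild-type TE and 4.75 and 4.93 in lamin B null TE. Z00022706-1 was one of those that stayed low, from −4.14 and −4.43 to −0.77 and −0.98 in wild type and from −3.81 and −4.32 to −0.96 and −0.32 in lamin B null cells. As the reference contains ESC RNA, a ratio near 0 does not mark a low transcript level.

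How active the probes were in ESC varied widely. The dimmest ESC spot was between 3.01 and 679 times as bright as its local background, with a median of 7.62, and the dimmest TE spot between 6.01 and 3416 times, with a median of 115. Of the 4424 active probes whose dimmest ESC spot was 3 to under 10 times its background, 236 belonged to the 417, which is 5.33%. The share was 2.44% (106 of 4345) from 10 to under 30 times, 1.30% (51 of 3931) from 30 to under 100 times, and 0.722% (24 of 3323) at 100 times or more. Strongly raised probes were thus found at every ESC brightness but took a falling share of the brighter classes, and since the rule itself uses brightness and gain this is a description. Within the 417 the median smaller gain moved little with the class, at 3.71, 3.63, 3.76 and 3.43 in the same order.

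The 5 probes that were brightest over background in ESC were Z00030576-1, Z00056780-1, Z00060672-1, Z00030583-1 and Z00012392-1, with dimmest ESC spots at 679, 370, 365, 362 and 355 times background. All had small gains for this group, between 8.71-fold and 13.0-fold in the 2 genotypes. Z00012392-1 gave −0.75 and −0.72 in wild-type ESC, −0.79 and −0.89 in lamin B null ESC, 2.89 and 2.40 in wild-type TE and 2.26 and 2.30 in lamin B null TE. Its ESC replicates differed by at most 0.10, and every TE array stood at least 2.98 above every ESC array. Z00060672-1 gave −1.70 and −0.84 in wild-type ESC, −1.63 and −1.22 in lamin B null ESC, 2.14 and 1.95 in wild-type TE and 1.93 and 1.96 in lamin B null TE. Here too the cell types did not overlap, although the wild-type ESC replicates differed by 0.85.

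Because the gain is a ratio of ratios, each channel was also taken alone. In the sample channel the processed signal of the 417 probes was higher in TE by a median of 4.81 on the log2 scale, between 2.45 and 9.49, where all active probes together shifted by 0.86. Relative to that shift the median sample-channel gain was 3.95, or 15.4-fold, and it was at least 3 for 399 of the 417 probes and at least 2 for 416. The sample-channel signal belongs to the ratio that chose the probes, so these values are a description and not a separate check. The reference channel should hold the same RNA on every array, and over all active probes it was higher on the TE slide by a median of 0.84. Among the 417 probes it was higher by a median of 0.95, with a range from −1.39 to 3.45.

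The reference channel moved more for these probes than for the others. For 321 of the 417 it stayed within 0.5 of the shift of all active probes, and it was more than 0.5 above that shift for 69 and more than 0.5 below for 27. Together this is 23.0% of the 417, against 2.68% of the other 15606 active probes. The reference-channel signal belongs to the ratio that chose the probes, so this difference was not tested, and its part in the gains was not tested.

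Z00053992-1 showed the largest rise of the reference channel, 3.45. Its reference signal above background was 4529 and 4742 on the wild-type ESC arrays, 3411 and 4154 on the lamin B null ESC arrays, 26147 and 51569 on the wild-type TE arrays, and 25258 and 31772 on the lamin B null TE arrays. On the same TE arrays its sample signal lay between 80116 and 138424, against 369 to 2048 in ESC, so both channels were high together. For this probe the sample channel alone rose by 8.30, and the gain of the ratio was smaller.

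Z00024159-1 lay at the opposite end. Its reference signal was 89046 and 132015 in wild-type ESC and 79495 and 95673 in lamin B null ESC, but 34970.2 and 45833 in wild-type TE and 20971 and 21848 in lamin B null TE. Its sample signal rose over the same arrays from between 2729.96 and 10119 to between 120958 and 227694, so the reference was low where the sample was high. The gain of the ratio for this probe was larger than the gain of its sample channel, which was 6.64. Z00030576-1, the brightest in ESC, behaved likewise: its sample channel rose by 2.45 and its reference channel fell by 0.81 between the slides.

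The overlapping pairs give the gain of partly shared stretches from separate spots. Within the 11 pairs the gains of both probes differed by a median of 0.20 in wild type, between 0.03 and 1.36, and by a median of 0.27 in lamin B null cells, between 0.01 and 1.40. Both probes of a pair had to reach a gain of at least 3 to be counted, which favours closeness, so this is a description. Z00034608-1 and Z00056326-1, which share 55 bases, gained 3.20 and 3.10 in wild type and 4.27 and 4.23 in lamin B null cells, and were thus alike to about 0.10. Z00059431-1 and Z00074362-1, with 46 shared bases, gained 4.80 and 5.30 in wild type and 3.43 and 3.75 in lamin B null cells. The pair furthest apart was Z00006752-1 and Z00075229-1, which share 23 bases at their ends and gained 3.26 against 4.62 in wild type and 3.62 against 5.02 in lamin B null cells. In that pair the ESC ratios were close, −1.44 and −0.96 against −1.68 and −1.17 in wild type, and the TE ratios were not, 2.07 and 2.05 against 3.19 and 3.20.

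A further 7 of the 417 probes shared at least 20 bases, on the same strand, with a probe outside the group. Of these partners 4 failed the brightness condition and 3 were active with a gain short of 3 in wild type. The latter were close: Z00037917-1 gained 2.86 in wild type and 3.64 in lamin B null cells beside 3.09 and 3.80 for Z00000651-1, Z00075140-1 gained 2.88 and 4.13 beside 3.03 and 4.34 for Z00014587-1, and Z00074631-1 gained 2.91 and 3.60 beside 3.01 and 3.71 for Z00060553-1. Here the limit separated probes that share most of their bases. The 4 partners that failed the brightness condition each gained at least 3 in both genotypes. Among them Z00075004-1, which shares 59 bases with Z00050957-1, gained 6.16 in wild type and 6.99 in lamin B null cells. For those 4 the brightness condition alone set the partner outside the group.

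In both pairs found on opposite strands the partner gained less. Z00022706-1 gained 3.41 in wild type and 3.42 in lamin B null cells, while Z00028989-1, which reads the other strand over 48 of the same bases, gained 0.85 and 0.69 and was not bright enough on all arrays to count as active. Z00074439-1 gained 3.31 and 3.35, while Z00073996-1, on the other strand over 50 bases, was active and gained 1.62 and 1.42. The search found 2 such pairs in all, and the difference between strands was not tested.

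In GC content the 417 probes were much like the rest of the array, while some of the motif shares below were higher, which was not tested. Their GC content had a median of 43.3%, with quartiles of 38.3% and 48.3%, and the median was the same in the other active probes and in all 42006. The letters AATAAA, the common form of the signal for cleavage and polyadenylation near the 3′ end of a messenger RNA, stood on the printed strand of 47 of the 417 probes, 11.3%, against 8.52% of the other active probes and 6.93% of all probes, and on the other strand of 2.88% against 3.42% and 3.36%. The variant ATTAAA stood on the printed strand of 3.36% of the 417, 3.53% of the other active probes and 3.19% of all, and on the other strand of 4.08%, 2.52% and 2.30%. Each motif was searched by its letters on both strands, the motifs can overlap at their ends and were counted separately, and a match is a description only. When the probes were set against the RefSeq windows around transcription starts of mouse genes (GRCm38.p6), 2 of the 417 shared at least 20 bases with 1, both on the strand opposite to the gene: Z00060553-1 over 20 bases with that of Bank1 (chr3:136326017-136326316) and Z00029339-1 over 22 bases with that of Gm52878 (chr6:125196484-125196783). Neither match names the transcript a probe reads.

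Genotype within a cell type was the comparison left to test, and it is not fully independent of the rule. A gain of at least 3 was required in both genotypes from the same arrays, so a probe whose ESC or TE level differed much between genotypes could drop out, and the counts below hold for probes so chosen. The question was whether loss of B-type lamins changed these probes in ESC or in TE. No member of the group passed. The test used limma on ratios corrected for background by normexp and normalised by loess within each array, over 27359 probes, all 417 among them, whose sample signal both arrays of some group held well above background, with p-values adjusted by Benjamini and Hochberg. In these values 349 of the 417 kept a gain of at least 3 in both genotypes. Their median gains were 3.68 in wild type and 3.72 in lamin B null cells. Over all tested probes 2.60% reached 3 in wild type and 2.55% in lamin B null cells, each genotype taken alone. The same contrast on the same arrays chose the probes, so these values are a description and nothing is read from the excess.

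In ESC, 0 of the 417 probes differed between lamin B null and wild type at an adjusted p of 0.05 in limma, where 0.124% of all tested probes did, and the smallest adjusted p was 0.326. At an unadjusted p of 0.05 there were 12, of which 4 were higher and 8 were lower without B-type lamins, or 2.88% against 3.38% of all tested probes. At this p the shares by direction over all tested probes are not given, so nothing is read from the split. The median difference over the 417, lamin B null minus wild type, was 0.03 on the log2 scale, and 232 were higher in lamin B null cells. Both lamin B null arrays lay above both wild-type arrays for 77 probes, 18.5% where 19.4% of all tested probes did so, and below for 63, 15.1% against 17.6%. Each of these shares is near that of the array at large, the one at an unadjusted p in the fit of all 8 arrays. With the ESC arrays fitted alone, 46 of the 417 had an unadjusted limma p under 0.05, 11% against 7.8% of all tested probes. That fit called 0 of the 417 at an adjusted p of 0.05, and the difference in share was not tested.

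The limits on what the ESC comparison can show are set by the spread, which the fit pools over all 4 groups. The wider spread of the TE replicates thus enters the ESC errors and intervals. For 65.7% of the 417 probes, against 87.8% of the other active probes, the 95% interval of the difference stayed inside 2-fold in both directions; for the rest a change of 2-fold lies in the interval. Z00022182-1 differed most in ESC: the loess ratios were 0.21 and 0.54 in wild type and −0.97 and −0.85 in lamin B null cells, a difference of −1.29 ± 0.26 (SE, limma) with an adjusted p of 0.408. Its 2 groups did not overlap in ESC, and in TE they were 4.43 and 3.84 against 3.78 and 3.28, also without overlap. With array weights estimated by limma its ESC difference passed at an adjusted p of 0.0468.

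Z00026990-1 was the probe with the largest difference the other way in ESC, at −0.21 and 0.13 in wild type and 1.34 and 1.14 in lamin B null cells, 1.29 ± 0.59 (SE, limma, adjusted p 1.00). The next 3 by size in ESC were Z00030389-1 at −0.94, Z00074790-1 at −0.90 and Z00074875-1 at 0.89, each with a limma adjusted p of 1.00. Only 2 of the 417 differed by more than 1, and the share over all tested probes is not given. The errors above take in the spread of the TE replicates. With the ESC arrays fitted alone, the limma adjusted p was 0.106 for Z00022182-1 and 0.121 for Z00026990-1. For the next 3 it lay between 0.429 and 0.681.

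In TE, 0 of the 417 probes differed between genotypes at an adjusted p of 0.05 in limma, where 0.0219% of all tested probes did, and the smallest adjusted p was 0.275. At an unadjusted p of 0.05 there were 17, of which 5 were higher and 12 were lower without B-type lamins, or 4.08% against 3.49% of all tested probes. The split by direction is again not read, for want of shares by direction over all tested probes. The median difference was 0.01, and 212 of the 417 were higher in lamin B null cells. Both lamin B null arrays lay above both wild-type arrays for 32 probes, 7.67% against 11.8% of all tested probes, and below for 45, 10.8% against 11.6%. Without wild-type TE replicate 2 the median difference was 0.01, and without replicate 1 it was −0.02. Each of these fits leaves wild-type TE with 1 array, whose own spread it cannot measure. Their counts of calls, given with the processing below, are therefore not read as results.

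Spread between replicates was widest in wild-type TE. The SD over the 417 probes of replicate 2 minus replicate 1 was 0.96 in wild-type TE, 0.49 in lamin B null TE, 0.44 in lamin B null ESC and 0.36 in wild-type ESC. The other active probes gave 0.62, 0.33, 0.29 and 0.21 in the same order, so the SD was larger among the 417 in every group, a difference that was not tested. Replicates lay more than 1 apart for 97 of the 417 in wild-type TE, 29 in lamin B null TE, 20 in lamin B null ESC and 9 in wild-type ESC. In TE the 95% interval of the genotype difference lay within 2-fold for 56.1% of the 417, against 84.0% of the other active probes.

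Z00026990-1 again differed most in TE, with loess ratios of 1.89 and 3.93 in wild type and 4.70 and 4.83 in lamin B null cells, a difference of 1.85 ± 0.59 (SE, limma) with an adjusted p of 0.989. It was higher in lamin B null cells in both cell types on every array, and its wild-type TE replicates lay further apart than the group means. Without wild-type TE replicate 2 its difference was 2.87, and without replicate 1 it was 0.83. Z00034859-1 gave 0.40 and 2.65 in wild-type TE against 2.88 and 2.80 in lamin B null TE, 1.31 ± 0.64 (SE, limma, adjusted p 0.989). Its difference was 2.44 without wild-type TE replicate 2 and 0.19 without replicate 1. In both probes wild-type replicate 1 was the array that stood low.

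The 3 other large TE differences were negative and came from probes that are very low in ESC. The overlapping Z00074362-1 and Z00059431-1 gave −1.66 ± 0.85 and −1.56 ± 0.86 (SE, limma, adjusted p 0.989 for each), from 0.74 and −1.74 against −1.30 and −3.01 for the first and 0.71 and −1.87 against −1.30 and −2.97 for the second. Their 2 sets of values were nearly the same, and in both the groups overlapped. Z00026289-1 gave 2.46 and −0.48 in wild-type TE against 0.89 and −1.79 in lamin B null TE, −1.44 ± 1.11 (SE, limma, adjusted p 0.989). That difference was 0.03 without wild-type TE replicate 1, −2.90 without wild-type TE replicate 2 and −1.31 without both TE arrays of replicate 1. In these 3 probes the replicates of a group lay further apart than the group means, while lamin B null cells were lower among the arrays of either number, by −1.56 and −1.31 in Z00026289-1, −2.04 and −1.27 in Z00074362-1, and −2.01 and −1.10 in Z00059431-1.

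Fitted over ESC and TE together, genotype gave 0 calls among the 417 probes in limma, where 0.143% of all tested probes were called. At an unadjusted p of 0.05 there were 22, of which 6 were higher and 16 were lower without B-type lamins, or 5.28% against 4.64% of all tested probes. Here too nothing is read from the split, as shares by direction over all tested probes are not given. The nearest to a call was Z00074319-1, with a difference of −0.79 ± 0.11 (SE, limma) and an adjusted p of 0.0615. Its loess ratios were −2.31 and −2.00 in wild-type ESC and −2.85 and −2.73 in lamin B null ESC. In TE they were 1.65 and 1.69 in wild type and 0.76 and 0.68 in lamin B null cells. Lamin B null cells were thus lower in both cell types without overlap, and the gain was somewhat smaller in them. The interval of the common difference lay within 2-fold for 82.3% of the 417, and the share among the other active probes is not given. The common fit, here and under the processing below, had no term for cell line and took ESC and TE arrays as independent. The TE cells were derived from the ESC, with 2 lines per genotype, so an ESC and a TE array can share a line. Which array holds which line is not stated, so the line was not modelled. The SE, p-values and intervals of this fit therefore do not measure the spread between lines, and may be too small.

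The size of the gain itself could be set side by side for both genotypes but, as both chose the probes, not tested. In the processed signals it was larger in lamin B null cells for 273 of the 417 probes, by a median of 0.19, between −1.54 and 1.37, where the median over all active probes was 0.15. In the loess values it was larger in lamin B null cells for 211 of 417, with a median difference of 0.00 in the 417 and in the other active probes alike. In the processed signals the gain was at least 1 larger in lamin B null cells for 20 probes and at least 1 larger in wild type for 3.

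Again in the processed signals, the 5 probes with the most extra gain in lamin B null cells were Z00005799-1 (1.37), Z00026506-1 (1.37), Z00014587-1 (1.31), Z00037578-1 (1.29) and Z00022182-1 (1.28). In Z00005799-1 the difference lay in the ESC arrays, −0.90 and −0.14 in wild type against −2.14 and −1.50 in lamin B null cells, while its TE arrays were all between 4.24 and 4.44. In Z00026506-1 it lay in wild-type TE, at −0.84 and 2.78 against 1.25 and 2.91 in lamin B null TE, and so followed 1 array. The 5 with the least were Z00074362-1 (−1.54), Z00026289-1 (−1.44), Z00059431-1 (−1.37), Z00036098-1 and Z00063237-1 (−0.94), in that order. Of these, Z00063237-1 was one whose difference lay mainly in ESC, at −4.57 and −3.63 in wild type against −3.66 and −3.05 in lamin B null cells, beside 1.96 and 1.09 against 1.51 and 1.15 in TE.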

How the data were processed

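Per the file headers, the authors read 2-colour Agilent arrays with Feature Extraction 9.5.1.1 (protocol GE2-v5_95_Feb07). The deposited files give, per spot, mean and local background intensity and processed intensity (background-subtracted and dye-normalised) on a linear scale, with a log10 ratio. Per the file headers, flags of 0 or 1 mark spots well above background, and averaged over spots these are a fraction. A deposited table holds log10 values, not given in the sources used here as to their making, and served as an alternative.

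The probes were chosen on log2 ratios of processed intensity, Cy3 sample over Cy5 reference. Spots of a probe were averaged (7 probes had several). Genotype was tested on normexp (offset 50) and loess values with lmFit and eBayes (limma 3.58.1, R 4.3.3), 4 group means over 8 arrays with 4 residual degrees of freedom; the common effect used genotype and cell type as terms. Intervals are 95%. The fit was tested on simulated data. No dye swap was made, so a dye bias was not measured.

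Named probes are the 10 largest gains, the 5 just inside and 5 just outside the limit, the 5 brightest in ESC, the 5 largest and 5 smallest differences of gain, the 5 largest genotype differences per cell type, and any called probe; overlapping probes and those with extreme reference signals were added after their values were seen. The probes and rules were chosen with earlier results of these data known. Prepared marker lists were not applied, since probes are unnamed.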

Additional observations from a re-analysis of the deposited data

How the results depend on the processing

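The count of probes called for genotype in ESC was 0 in the fit and 1 with array weights (0.240%, against 0.435% of all tested probes); leaving out single arrays it was 0 to 0. In TE it was 0 in the fit, and 0 to 29 when single arrays were left out, with 29 without wild-type TE replicate 2 alone (6.95%, against 4.34% of all); where a group is left with 1 array, that array is assumed to vary like the others. For the common effect it was 0, and 1 with no background subtraction, with array weights and at an adjusted p of 0.10, and 0 to 1 when single arrays were left out, with 1 without wild-type TE replicate 1; each 1 is 0.240%, where all probes gave 0.172%, 0.347%, 0.212% and 0.183% in that order. The median gain of 3.68 in wild type became 3.77 with processed signals, 3.31 with median centring, 3.84 in the deposited values, 3.78 without both TE arrays of replicate 1, and 3.63 to 3.78 with single arrays left out. The 3.72 in lamin B null cells became 3.97, 3.18, 3.87 and 3.62 in that order, and 3.62 to 3.80. The median genotype difference, 0.03 in ESC and 0.01 in TE, became −0.0597 and 0.10 with processed signals and −0.0604 and −0.20 with median centring, and in TE −0.11 without both TE arrays of replicate 1. With single arrays left out it was −0.0136 to 0.0624 in ESC and −0.0684 to 0.0834 in TE. The 349 probes with a gain of at least 3 in the loess values became 220 with median centring. The rule gave 682 probes at 2 times background, 267 at 5 times, 698 at a gain of 2.5 and 242 at 3.5, and 341 to 468 with single arrays left out. Where no cause is given, the cause was not tested.

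Replicate numbers are shared by all groups. Replicate differences correlated across tested probes at 0.64 between genotypes in ESC and 0.52 in TE, and at −0.06 to 0.08 between cell types, so with 2 numbers the pairing is not established. With the replicate number as a block, 0 probes were called in ESC, in TE and in common. With a block within each cell type, chosen after seeing the data, it was again 0 in all 3. At an unadjusted p of 0.05 this block gave 41 probes in ESC, 9.83% against 6.31% of all, 74 in TE, 17.7% against 9.26%, and 50 in common, 12% against 7.82%. Groups of 2 arrays limit what can be detected.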

Other observations

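The replicates that differed mostly did so alike in both genotypes, a pattern also present across the array. Of the 97 probes whose wild-type TE arrays lay more than 1 apart in the loess values, 44 were higher on replicate 1 and 53 on replicate 2, and for 92 of the 97 the lamin B null TE arrays differed in the same direction. In the same values Z00026289-1 and Z00026506-1 show both directions: the first stood at 2.46 and −0.48 in wild-type TE and 0.89 and −1.79 in lamin B null TE, the second at −0.84 and 2.85 and at 1.24 and 2.75. In ESC, 9 probes had wild-type arrays more than 1 apart, all higher on replicate 2, and all 9 differed in the same direction in lamin B null cells. Across all tested probes the replicate differences correlated between genotypes at 0.52 in TE and 0.64 in ESC. Within the group these correlations were 0.83 and 0.80. Shares with the same direction among other probes are not given, so these counts are a description only.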
